A study of Mus musculus with 6 samples.

Results

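The genes of the mouse mitochondrial genome were followed in RNA sequencing of 6 hearts. Members were taken as the rows whose Ensembl identifier lies on the mitochondrial chromosome (symbols starting with mt-), which gave 35 of the 49315 rows in the count table: 13 mRNAs and 22 tRNAs. The annotation holds 37 such genes, and the ribosomal RNAs mt-Rnr1 and mt-Rnr2 were not analysed here. The hearts came from C57BL/6 mice, 3 in which CRISPR-Cas9 had disrupted Arrdc4 (KO, ARRDC4 knock-out in the labels) and 3 wild type (WT), and each gave 1 library. No label or note used here gives age, sex, litter, the edited exon, the number of founder lines or whether the wild-type mice were littermates. Replicates are called separate hearts here because each has its own label, and p-values measure the spread between them. Arrdc4 is an alpha-arrestin, one of a family of adaptor proteins for ubiquitin ligases. Its own counts matched the labels, with 5, 1 and 2 reads in KO hearts against 349, 307 and 281 in WT hearts.

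The mitochondrial genome is a small circle of DNA inside the organelle that encodes only core subunits of the respiratory chain, with the ribosomal and transfer RNAs needed to translate them. Both strands are transcribed into long precursors, which are cut where tRNAs lie between the mRNAs, and most of the mRNAs then receive a short poly(A) tail. Heart muscle is packed with mitochondria, and mitochondrial mRNAs are among the most abundant messages of cardiac tissue. Complex I takes 7 of the encoded subunits (mt-Nd1, mt-Nd2, mt-Nd3, mt-Nd4, mt-Nd4l, mt-Nd5 and mt-Nd6), and complex III takes cytochrome b (mt-Cytb). Complex IV, the oxidase that passes electrons to oxygen, takes mt-Co1, mt-Co2 and mt-Co3, and complex V, the ATP synthase, takes mt-Atp6 and mt-Atp8. In bulk tissue, fewer cells of a type and less RNA per cell cannot be told apart.

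Sequences bear on what these counts can show, since a nuclear stretch of mitochondrial DNA on chromosome 1 repeats part of the genome almost letter for letter. The start of mt-Co2 (GRCm38 chrM:7013-7072, plus strand) and the start of its annotated nuclear copy Gm28661 (chr1:24615506-24615565, minus strand) are identical, and the start of mt-Nd3 (chrM:9459-9485, plus strand) and of its copy Gm28438 (chr1:24613093-24613119, minus strand) differ at the base in capitals, T3C counted from the gene's first base. All sequences are given 5′ to 3′ from the GENCODE M21 transcripts.
mt-Co2 start: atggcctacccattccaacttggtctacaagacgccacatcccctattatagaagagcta
Gm28661 start: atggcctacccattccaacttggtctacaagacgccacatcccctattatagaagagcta
mt-Nd3 start: atTaacctgtacactgttatcttcatt
Gm28438 start: atCaacctgtacactgttatcttcatt

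Neighbouring mitochondrial genes also share bases with each other. The last 43 bases of mt-Atp8 are the first 43 of mt-Atp6 in another reading frame, in capitals below (chrM:7907-7969 and chrM:7927-7989, plus strand). The last 14 bases of mt-Nd5 (chrM:13536-13565, plus strand) pair with the last 14 of mt-Nd6 (chrM:13552-13581, minus strand), again in capitals. Smaller overlaps join mt-Nd4l and mt-Nd4 (7 bases), mt-Ti and mt-Tq (3), mt-Co1 and mt-Ts1 (3), mt-Nd1 and mt-Ti (2), mt-Nd2 and mt-Tw (2), mt-Atp6 and mt-Co3 (1) and mt-Ts2 and mt-Tl2 (1). No source used here gives the strand setting or how reads matching more than 1 gene were handled, so counts of these overlapping, antisense or copied genes are uncertain where reads can be shared.
mt-Atp8 end: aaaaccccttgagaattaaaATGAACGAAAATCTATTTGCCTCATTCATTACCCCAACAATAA
mt-Atp6 start: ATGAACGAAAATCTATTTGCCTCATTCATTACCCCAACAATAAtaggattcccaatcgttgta
mt-Nd5 end: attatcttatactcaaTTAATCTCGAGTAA
mt-Nd6 end: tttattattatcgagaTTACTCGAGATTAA

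The tRNAs shown next are a trio of neighbours whose levels differed widely between hearts (mt-Th, mt-Ts2 and mt-Tl2) and 3 of the 4 most abundant (mt-Tl1, mt-Tn and mt-Tp). The anticodon, which reads the codon on the mRNA, is in capitals. These are the tRNAs for histidine (mt-Th, chrM:11546-11612), serine (mt-Ts2, chrM:11613-11671), leucine (mt-Tl2, chrM:11671-11741, and mt-Tl1, chrM:2676-2750), all on the plus strand, and for asparagine (mt-Tn, chrM:5089-5159) and proline (mt-Tp, chrM:15356-15422), on the minus strand.
mt-Th: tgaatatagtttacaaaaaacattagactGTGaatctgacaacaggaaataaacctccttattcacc
mt-Ts2: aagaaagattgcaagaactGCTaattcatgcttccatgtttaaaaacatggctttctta
mt-Tl2: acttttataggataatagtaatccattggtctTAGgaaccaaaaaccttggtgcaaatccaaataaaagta
mt-Tl1: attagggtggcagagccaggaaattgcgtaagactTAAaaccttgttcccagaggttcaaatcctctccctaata
mt-Tn: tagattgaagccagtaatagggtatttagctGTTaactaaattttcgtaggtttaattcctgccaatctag
mt-Tp: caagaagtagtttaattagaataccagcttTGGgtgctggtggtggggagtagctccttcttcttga

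Libraries held 29974501 to 41036626 reads in genes, and 6 of the 10 genes with the most reads in the whole table were mitochondrial (mt-Co1, mt-Cytb, mt-Nd1, mt-Nd5, mt-Nd2 and mt-Nd4). All 12 cardiomyocyte markers were detected, and their summed level was 67427, 68048 and 79569 CPM in KO hearts and 67515, 74452 and 69957 CPM in WT hearts, where CPM is a gene's count over the TMM-scaled library size, scaled up to a common total. The sum hid opposite differences between single markers. Myh6 had 9167 CPM in KO replicate 2 and 10042 in WT replicate 3, against 17169 to 29523 in the other hearts. Ttn had 839, 879 and 788 CPM in KO replicate 2, WT replicate 1 and WT replicate 3, against 2308 to 3235 in the others. Myl2 went the other way, with 11846 CPM in KO replicate 2 and 11698.5 in WT replicate 3, against 5054 to 7438. Most markers of other tissues had few reads: of 5 adipocyte markers, Ucp1 of brown fat had at most 1 read in a library, Adipoq 3, Plin1 6 and Cfd 22, while Cidea had 755 to 1275 reads in KO hearts and 692 to 1103 in WT hearts. Of 5 skeletal muscle markers, the myosins Myh4 and Myh1 had at most 0 and 2 reads, Myod1 at most 4 and Tnnt3 at most 10, and Mylpf had 20 to 23 reads in KO hearts and 19 to 35 in WT hearts. Summed fibroblast markers were higher in KO replicates 1 and 3 (1174 and 851 CPM, against 411 in KO replicate 2) than in the WT hearts (544, 744 and 496 CPM). KO replicate 2 and WT replicate 3 stood apart from the other hearts in the summed level of 29 nuclear respiratory subunits (44386 and 43378 CPM, against 26748 to 33403 CPM in the other 4), and each test was also run without both. Of 7 fibroblast markers 6 had higher values in KO hearts and none was called, and their part in the results below was not tested.

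Mitochondrial transcripts took about 1 read in 4, and the shares of KO and WT hearts overlapped. Shares here are of the summed reads of all rows analysed, and ribosomal RNA genes, mitochondrial or nuclear, are in neither part, so the share is not one of total RNA. Of the reads of the 13 mRNAs, 6 mRNAs held only 0.0273% in KO hearts and 0.0276% in WT hearts (means). The share is thus almost wholly one of the other 7 mRNAs and does not measure the output of the whole mitochondrial genome. The 35 genes held 25.7%, 27.7% and 21.8% of the reads in KO replicates 1 to 3 and 23.0%, 25.1% and 26.2% in WT replicates 1 to 3. KO replicate 2 was the highest of the 6 hearts and KO replicate 3 the lowest, so the WT values lay inside the KO range. The mean share was 25.04% ± 3.02 in KO hearts and 24.77% ± 1.66 in WT hearts (SD, n = 3 each), a difference of 0.273 percentage points (two-sided exact permutation test, p = 0.9, where 3 against 3 cannot go below 0.1). Counting error was at most 0.0156 percentage points per heart (95% Wilson interval, to either side), far below the spread between hearts. Without KO replicate 2 the difference was -1.06 points, without WT replicate 1 it was -0.627 and without KO replicate 3 it was 1.92, so its sign rested on single hearts.

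The mRNAs made up nearly all of that share and the tRNAs very little of it. The 13 mRNAs held 24.9% ± 2.99 of the reads in KO hearts and 24.6% ± 1.64 in WT hearts (SD, n = 3 each; exact permutation test, p = 0.9). The tRNAs held 0.170% ± 0.0333 in KO hearts and 0.169% ± 0.0215 in WT hearts (SD, n = 3 each; exact permutation test, p = 1). Column purification of the kind named in the labels keeps RNAs as short as tRNAs (59 to 75 bases here) poorly, and the sources used here do not say whether libraries were poly(A)-selected or depleted of ribosomal RNA. The tRNA counts are therefore reads assigned to tRNA genes, not tRNA abundance, and whether they came from mature or uncut transcripts was not tested.

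Reads were spread very unevenly along the genome. The 7 abundant mRNAs held 241818 to 4129319 reads per library. The other 6 mRNAs (mt-Co2, mt-Atp8, mt-Atp6, mt-Co3, mt-Nd3 and mt-Nd4l) held 82 to 965 reads per library, and they form an unbroken run of mRNAs in gene order. The same run holds the tRNAs mt-Ts1, mt-Td, mt-Tk, mt-Tg and mt-Tr, which together had 136 reads in all 6 libraries, at most 19 in any 1 gene and library. The 17 tRNAs outside the run had between 310 (mt-Tt) and 82568 (mt-Tn) reads over the 6 libraries. The drop and its edges stood at the same genes in all 3 KO and all 3 WT hearts.

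**Figure D1:**
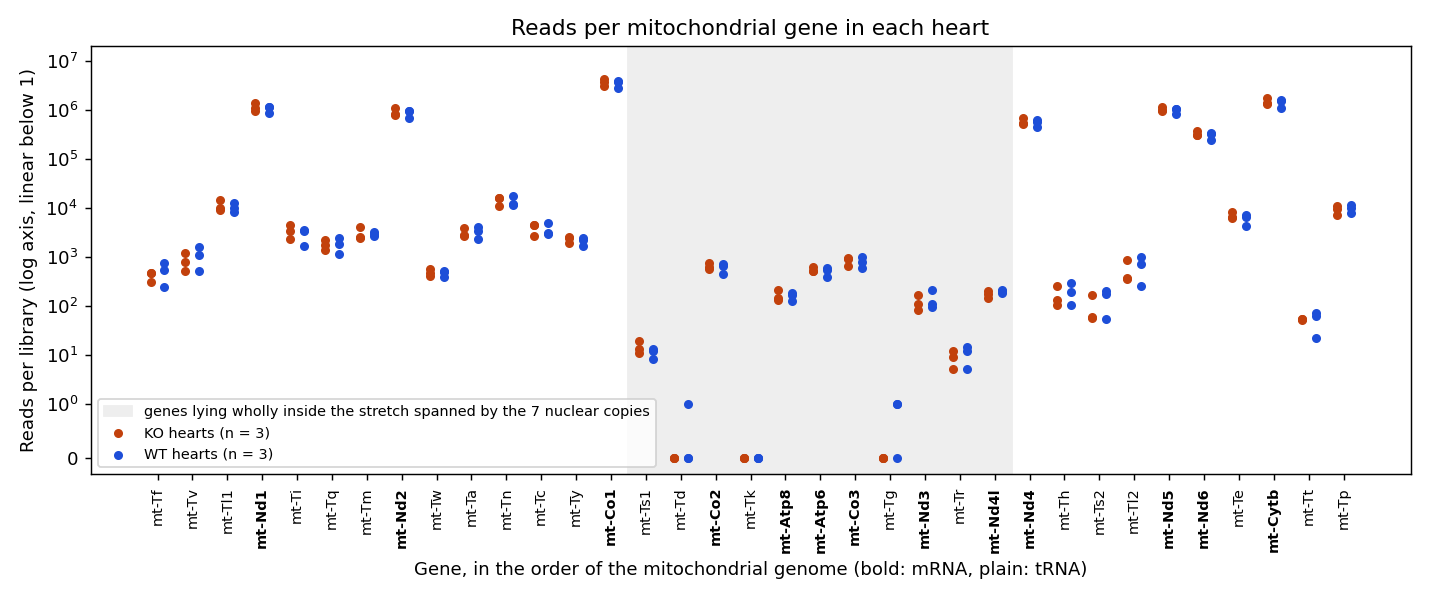
Reads per library (log axis, linear below 1) for each mitochondrial gene in genome order, with 3 KO hearts left and 3 WT hearts right of each tick. The grey band covers the 11 genes lying wholly inside the stretch that the nuclear copies on chromosome 1 span. Its 6 mRNAs hold 82 to 965 reads per library, where the mRNAs outside the band hold 241818 or more.

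That low-count run coincides with a stretch present as nearly identical annotated copies on chromosome 1. Compared with all other annotated transcripts, 7 pseudogenes on the minus strand of chromosome 1 (GRCm38 chr1:24611535-24616197) matched mitochondrial genes in the same order and with the same spacing. Their gaps were 140, 233, 2, 69 and 74 bases, with an overlap of 4 bases. These equalled the gaps between the matched mitochondrial stretches, except for 1 base between Gm28438 and Gm10222. Over 4140 aligned bases there were 2 mismatches. The matched mitochondrial stretch is chrM:6390-11042, or 4653 bases, and wholly contains 11 genes: the 6 low mRNAs and the 5 tRNAs just named.

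Copy by copy, identity on chromosome 1 was at or near 100%. Gm28661 matched mt-Co2 over 681 bases, Gm10925 matched mt-Atp6 over 678, Gm28437 matched mt-Co3 over 783 and Gm10222 matched mt-Nd4l over 294, all at 100%. Gm28438 matched mt-Nd3 over 345 bases at 99.7%. The chromosome 1 copies of the genes at both ends were partial. Gm29216 matched the last 483 of the 1545 bases of mt-Co1 (positions 1063 to 1545, 99.8%). Gm28439 matched the first 876 of the 1378 bases of mt-Nd4 (100%). The best match of mt-Co1 was Gm13340 on chromosome 2, over all 1545 bases at 97.6%, with 3693 reads summed over all hearts. Other mRNAs outside the run had annotated matches elsewhere, at lower identity. The best were Gm13339 for mt-Nd2 (510 bases, 96.7%), Gm11407 for mt-Nd5 (1058 bases, 92.3%) and Gm11408 for mt-Nd6 (519 bases, 93.6%). For mt-Cytb it was Gm11410 (1142 bases, 92.9%), and for mt-Nd1 Gm11834 (509 bases, 76.6%). mt-Atp8 has no annotated copy of its own at or near 100% identity. Its last 43 bases, shared with mt-Atp6, lie inside the match of Gm10925, and the rest lies in the gap between Gm28661 and Gm10925. The genome sequence between the annotated pseudogenes was not used here.

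Both members of each pair had reads. mt-Co2 had 3684 reads over the 6 libraries and Gm28661 had 6737. The counts were 3128 for mt-Atp6 and 7345 for Gm10925, 4798 for mt-Co3 and 11047 for Gm28437, and 1095 for mt-Nd4l and 5872 for Gm10222. The widest gap was at mt-Nd3, with 766 reads against 26620 for Gm28438, which reached 7115 reads in WT replicate 2. In these 5 pairs the nuclear row was the higher. For the partial copies it was the reverse, with 3368232 reads for mt-Nd4 against 4405 for Gm28439 and 21087875 for mt-Co1 against 4925 for Gm29216.

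The share of a gene's own sequence was measured as the 50-base windows with no exact match in another annotated transcript. It was 0% for mt-Co2 (0 of 635 windows), 0.137% for mt-Co3, 0.475% for mt-Atp6, 1.21% for mt-Nd4l and 2.01% for mt-Nd3. It was 37.8% for mt-Nd4 (502 of 1329), 48.9% for mt-Co1 (731 of 1496), 91.8% for mt-Nd2, 92.4% for mt-Nd5 and 100% for mt-Nd1, mt-Nd6, mt-Cytb and mt-Atp8. Across the 13 mRNAs the 5 with under 3% own windows had 2201 to 6120 reads per kb over the 6 hearts, and the 7 abundant ones had at least 2.44e+06. Of the mRNAs, mt-Atp8 was the exception, with all 155 windows its own and 4637 reads per kb. The 5 tRNAs of the low-count run also had 100% own windows. Windows were compared with annotated transcripts alone, so matches in unannotated nuclear sequence could not be seen. The part that shared sequence plays in the low counts was not tested, and values of these 6 mRNAs below, in reads or CPM, are of the reads assigned to them and not of the transcripts' levels.

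**Figure D2:**
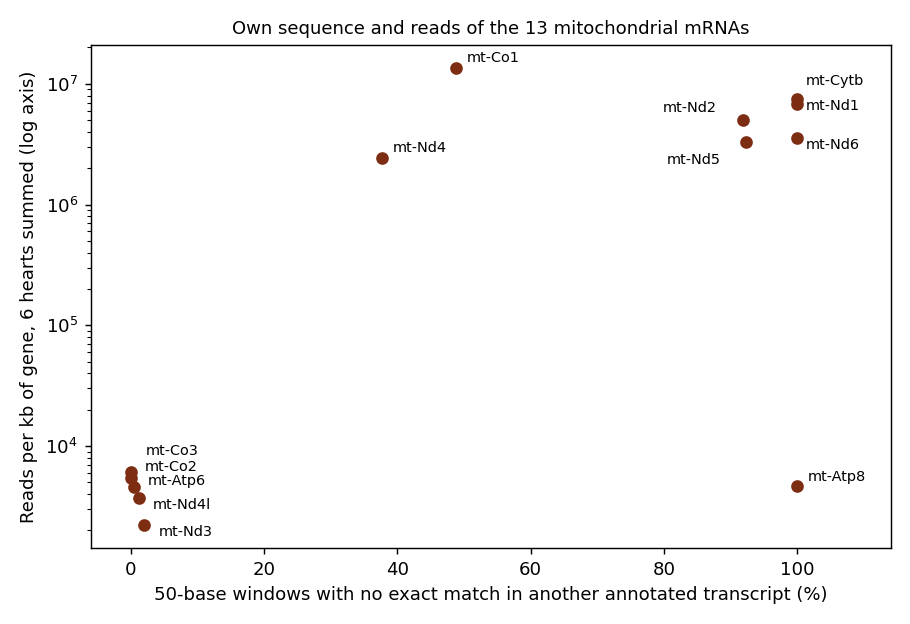
Percent of 50-base windows with no exact match in another annotated transcript (horizontal) and reads per kb of gene summed over the 6 hearts (vertical, log axis), 1 point for each of the 13 mRNAs. The 5 mRNAs with nearly full-length copies on chromosome 1 sit at the lower left with under 3% own windows. Those copies have 99.7% identity or more. mt-Atp8 alone sits low at 100%, and the 7 abundant mRNAs lie at 2.44e+06 reads per kb or above. Unannotated nuclear sequence was not compared.

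Among the 7 abundant mRNAs the order of levels was the same in every heart. Per kb of annotated gene length, mt-Co1 came first at 64872 ± 14836 CPM per kb in KO hearts and 64778 ± 9177 in WT hearts (SD, n = 3 each). mt-Cytb followed at 35348 ± 5842 in KO hearts and 34914 ± 4753 in WT hearts, and mt-Nd1 at 32395 ± 6257 in KO hearts and 31800 ± 3835 in WT hearts. Cytochrome b and mt-Nd1 differed by less than the spread between hearts, although mt-Cytb was the higher of the pair in all 6. Next in level came mt-Nd2 (23707 ± 4116 CPM per kb in KO hearts and 23944 ± 2815 in WT hearts), mt-Nd6 (17006 ± 2409 in KO hearts and 16641 ± 2257 in WT hearts) and mt-Nd5 (15563 ± 2114 in KO hearts and 15487 ± 1508 in WT hearts). The last, mt-Nd4, stood at 11527 ± 1724 CPM per kb in KO hearts and 11563 ± 1213 in WT hearts. mt-Nd6 and mt-Nd5 also differed by less than the spread between hearts.

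The place of mt-Nd4 depended on the length used. When counts were divided by the number of own 50-base windows, a choice made after seeing the data, mt-Nd4 moved up to rank 4 of 7 in all 6 hearts, with 31.6 ± 4.73 CPM per window in KO hearts and 31.7 ± 3.33 in WT hearts (SD, n = 3 each). On that scale mt-Co1 stood at 137 ± 31.4 CPM per window in KO hearts and 137 ± 19.4 in WT hearts, and mt-Cytb at 36.9 ± 6.10 in KO hearts and 36.5 ± 4.97 in WT hearts. mt-Nd1 stood at 34.1 ± 6.60 CPM per window in KO hearts and 33.5 ± 4.04 in WT hearts. The ranks were the same with 100-base windows. mt-Co1 stayed first under each length.

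None of the 32 mitochondrial genes that passed the filter on low counts was called different between KO and WT hearts. The comparison asks which transcripts change when Arrdc4 is lost, and edgeR's quasi-likelihood test with Benjamini-Hochberg adjustment over 14508 genes called 0 mitochondrial genes higher and 0 lower. Across all genes it called 1, Arrdc4 itself, which is 0.00689%, and 0 higher, which is 0%. No mitochondrial gene had an unadjusted p under 0.05, where 179 of all genes did, and all adjusted p-values of mitochondrial genes were 1 in edgeR. In 0 of the 32 did the KO values lie wholly above or wholly below the WT values, where 4.07% of all genes did. The rows not tested were mt-Tk, with 0 reads in every library, mt-Td, with 1 read in all, and mt-Tg, with 2. A count of 0 allows up to 3 reads, or 0.0700 to 0.103 CPM depending on the library.

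Of the 13 mRNAs 8 had higher and 5 lower values in KO hearts, with a median log2 fold change of 0.0071 where all genes tested had 0.0092 and 52.3% of them were higher. The median was -0.0048 with edgeR's RLE scaling in place of TMM, -0.121 without KO replicate 2 and 0.115 without KO replicate 3. It therefore had no settled sign. A 2-fold difference, up or down, lay outside the 95% interval for 12 of 13 mRNAs, mt-Nd3 being the exception, and for 76.5% of all genes. A 1.5-fold difference lay outside it for 9 of 13.

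Complex IV's catalytic subunit mt-Co1 had the most assigned reads of all rows analysed. It had 96308, 124855 and 79518 CPM in KO hearts and 86245, 99425 and 114578 CPM in WT hearts. Both the highest and the lowest value were in KO hearts. The log2 fold change was 0.00 (SE 0.26), with a 95% interval of -0.60 to 0.60. Cytochrome b of complex III, mt-Cytb, had 39513, 47536 and 34266 CPM in KO hearts and 33913, 41435 and 44477 CPM in WT hearts, and its log2 fold change was 0.02 (SE 0.22). KO replicate 2 was again highest, and the groups overlapped.

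The complex I mRNAs overlapped between the groups as well. mt-Nd1, a membrane-arm subunit next to the quinone site, had 31582, 36678 and 24744 CPM in KO hearts and 26741, 30477 and 34081 in WT hearts (log2 fold change 0.03, SE 0.23). The proton-pumping subunits followed, mt-Nd2 with 25476, 28379 and 19969 CPM in KO hearts and 21652, 25532 and 27377 in WT hearts (log2 fold change -0.01, SE 0.22). In mt-Nd1 and mt-Nd2 alike KO replicate 2 was the highest heart and KO replicate 3 the lowest. mt-Nd4 had 15745, 18326 and 13581 CPM in KO hearts and 14014, 16719 and 17069 in WT hearts (log2 fold change -0.00, SE 0.20), and mt-Nd5 had 26816, 32782 and 25564 in KO hearts and 26119, 27271 and 31354 in WT hearts (0.01, SE 0.20). mt-Nd6, the only mRNA of its strand, had 8402, 10234 and 7843 CPM in KO hearts and 7652, 8326 and 9932 in WT hearts (0.03, SE 0.20). Each of these 5 had overlapping groups, and the largest value over the smallest across the 6 hearts ran from 1.28 (mt-Nd5) to 1.57 (mt-Co1) in the 7 abundant mRNAs.

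**Figure D3:**
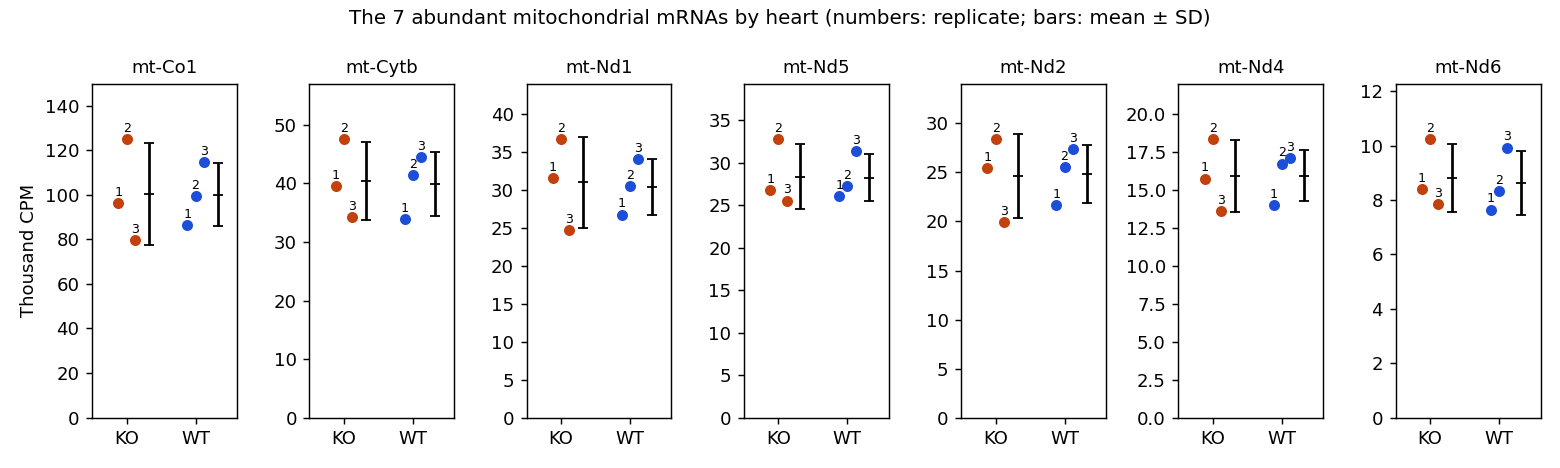
Levels in CPM (axis divided by 1000) of the 7 abundant mRNAs, 1 panel each with its own axis from 0, KO hearts left and WT hearts right, replicate numbers beside the points and bars for mean ± SD (n = 3). KO and WT hearts overlap in every panel, KO replicate 2 is the highest heart throughout, and mt-Co1 spans 79518 to 124855 CPM.

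The 6 mRNAs with few assigned reads also gave no call, with the limit that their reads can match the nuclear copies. Complex IV's mt-Co2 had 724, 614 and 555 reads in KO hearts and 443, 633 and 715 in WT hearts (log2 fold change 0.01, SE 0.21), and mt-Co3 had 873, 952 and 641 in KO hearts and 583, 784 and 965 in WT hearts (0.04, SE 0.28). The ATP synthase subunits stood at 0.08 (SE 0.18) for mt-Atp6, with 504 to 626 reads in KO hearts and 377 to 576 in WT hearts, and at -0.08 (SE 0.20) for mt-Atp8, with 128 to 208 in KO hearts and 123 to 178 in WT hearts. Groups overlapped in all 4. The complex I subunits of the run had the lowest fold changes of the 13. mt-Nd4l had 4.52, 5.89 and 3.82 CPM in KO hearts and 5.63, 5.35 and 6.12 CPM in WT hearts (log2 fold change -0.27, SE 0.20). mt-Nd3 had 2.47, 5.72 and 2.15 CPM in KO hearts and 3.48, 2.53 and 6.18 CPM in WT hearts (-0.25, SE 0.47), a wide spread within each genotype.

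None of the 7 nuclear copies on chromosome 1 was called either. Summed over the 7, the reads assigned to them were 278, 382 and 236 CPM in KO hearts and 273, 357 and 385 CPM in WT hearts. The mean was 299 ± 75.3 in KO hearts and 338 ± 58.1 in WT hearts (SD, n = 3 each; exact permutation test, p = 0.6). These reads can also match the mitochondrial genes, so they are not levels of nuclear transcripts. Of the 7, 2 had higher and 5 lower values in KO hearts, 0 were called, and the median log2 fold change was -0.02. The pair with the smallest p were Gm28438 (-0.43, SE 0.29) and Gm28439 (-0.11, SE 0.21). Adding the copies to the mitochondrial share moved its difference between KO and WT hearts to 0.269 points, against 0.273 without them.

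**Figure D4:**
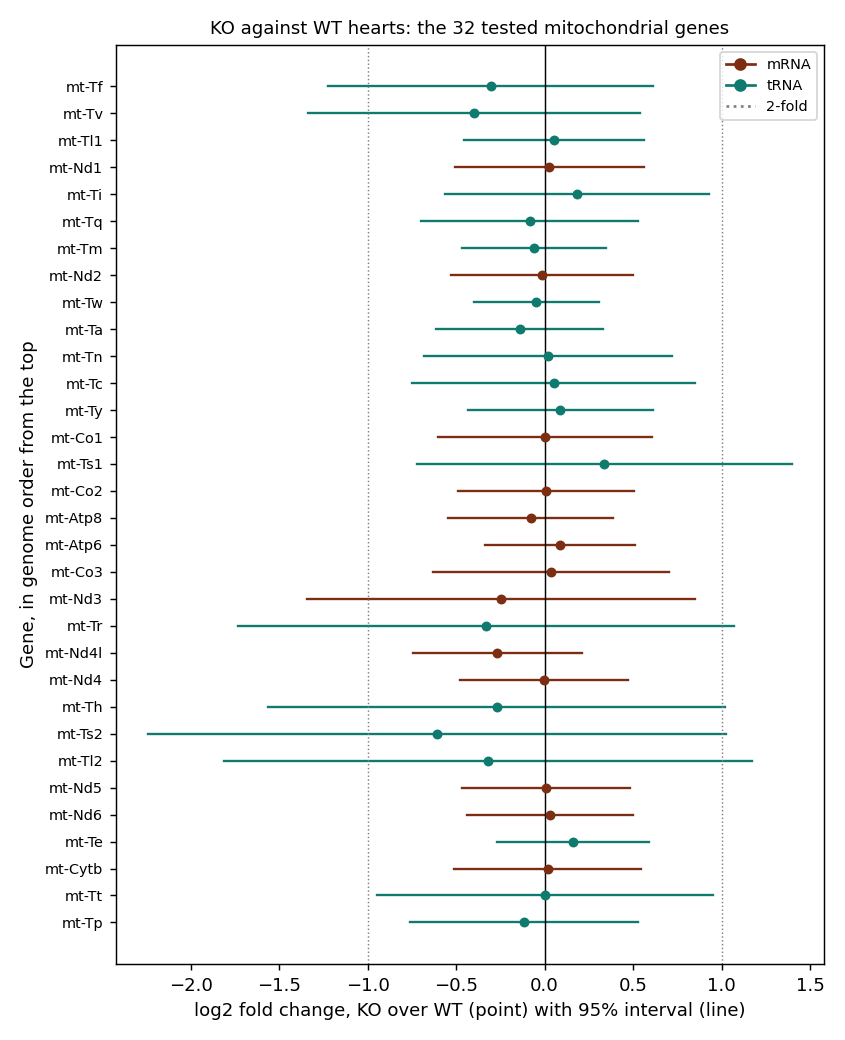
Log2 fold change (KO over WT, points) with its 95% interval (lines) for the 32 tested mitochondrial genes in genome order from the top, mRNAs in brown and tRNAs in green, dotted lines at a 2-fold difference. Every interval includes 0; the points run from -0.61 (mt-Ts2) to 0.34 (mt-Ts1), and the 7 abundant mRNAs lie between -0.01 and 0.03.

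The split of assigned mitochondrial mRNA reads among the 7 abundant mRNAs was nearly constant between hearts. The other 6 held 0.0273% ± 0.00182 of these reads in KO hearts and 0.0276% ± 0.00205 in WT hearts (SD, n = 3 each). The shares are therefore of assigned reads and not of the transcripts' levels. mt-Co1 was 39.5%, 41.8% and 38.7% of the reads of the 13 mRNAs in KO hearts and 39.9%, 39.9% and 41.1% in WT hearts. mt-Cytb took 16.3% ± 0.387 in KO hearts and 16.1% ± 0.490 in WT hearts, and mt-Nd1 12.4% ± 0.473 in KO hearts and 12.3% ± 0.0781 in WT hearts (SD, n = 3 each). The next share was that of mt-Nd5, with 11.5% ± 0.841 in KO hearts and 11.4% ± 0.585 in WT hearts. mt-Nd2 took 9.89% ± 0.497 in KO hearts and 10.02% ± 0.215 in WT hearts, and mt-Nd4 6.40% ± 0.243 in KO hearts and 6.43% ± 0.296 in WT hearts. These shares do not depend on how libraries are scaled. Of 13 exact permutation tests on such shares, unadjusted, 12 gave a p above 0.1 and 1 gave the smallest p the design allows, 0.1. That was mt-Nd4l, at 0.00186%, 0.00197% and 0.00186% of mitochondrial mRNA reads in KO hearts and 0.00260%, 0.00215% and 0.00219% in WT hearts. After Benjamini-Hochberg adjustment over the 13 exact permutation tests, the p of mt-Nd4l was 0.945. Its 3 KO values lay below its 3 WT values on this scale but not in CPM, where KO replicate 2 exceeded 2 of the WT hearts, and it is one of the mRNAs whose sequence is repeated in the nuclear copies.

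The balance between the strands did not differ beyond the spread between hearts. mt-Nd6, read from the strand opposite to the other 12 mRNAs, took 3.44%, 3.42% and 3.82% of mitochondrial mRNA reads in KO hearts and 3.54%, 3.34% and 3.56% in WT hearts. The log2 ratio of its count to the summed other 12 was -4.76 ± 0.0912 in KO hearts and -4.79 ± 0.0524 in WT hearts (SD, n = 3 each), a difference of 0.0338 (exact permutation test, p = 0.8). Without a known strand setting, reads of mt-Nd6 cannot be told apart from antisense reads of the other strand across its length. The tRNA genes of the minus strand took 67.5% ± 2.91 of tRNA reads in KO hearts and 67.8% ± 1.08 in WT hearts (exact permutation test, p = 0.9, n = 3 each).

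Of the 19 tested tRNAs 8 had higher and 11 lower values in KO hearts, with a median log2 fold change of -0.06. That median was -0.267 without KO replicate 2, 0.0668 without KO replicate 3 and 0.0935 without WT replicate 3. A 2-fold difference was excluded for 12 of 19. The 4 most abundant, by reads and per kb, were mt-Tn, mt-Tl1, mt-Tp and mt-Te, which carry asparagine, leucine, proline and glutamate. mt-Tn had 364, 554 and 282 CPM in KO hearts and 380, 296 and 507 CPM in WT hearts (log2 fold change 0.02, SE 0.30). mt-Tl1, whose gene lies between mt-Rnr2 and mt-Nd1, had 331, 344 and 238 CPM in KO hearts and 252, 263 and 365 in WT hearts (0.05, SE 0.22). Groups overlapped in both. mt-Tp had 223, 369 and 185 CPM in KO hearts and 248, 261 and 333 in WT hearts (-0.12, SE 0.27), and mt-Te had 192, 208 and 169 in KO hearts and 134, 186 and 189 in WT hearts (0.16, SE 0.18).

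Among the other tested tRNAs the spread between hearts differed from gene to gene. Those for cysteine (mt-Tc, 0.05, SE 0.34), isoleucine (mt-Ti, 0.18, SE 0.32), alanine (mt-Ta, -0.14, SE 0.20), methionine (mt-Tm, -0.06, SE 0.17), tyrosine (mt-Ty, 0.09, SE 0.22) and glutamine (mt-Tq, -0.08, SE 0.26) had 1156 to 4891 reads per library. Tryptophan's mt-Tw (-0.05, SE 0.15), with 382 to 566 reads, had the smallest spread between hearts of all tested tRNAs, the highest level being 1.27 times the lowest. For phenylalanine's mt-Tf (-0.30, SE 0.39) and valine's mt-Tv (-0.40, SE 0.40), which flank mt-Rnr1, WT replicate 2 was the highest heart, at 20.1 and 42.2 CPM. The remaining ones had few reads: mt-Tt of threonine (0.00, SE 0.40; 22 to 69 reads), mt-Tr of arginine (-0.33, SE 0.60; 5 to 14 reads) and mt-Ts1 of serine (0.34, SE 0.45; 8 to 19 reads).

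The cluster mt-Th, mt-Ts2 and mt-Tl2, whose sequences stand above, varied widely between hearts of the same genotype. mt-Th had 3.10, 8.68 and 2.64 CPM in KO hearts and 5.92, 2.80 and 8.60 CPM in WT hearts (log2 fold change -0.27, SE 0.55). mt-Ts2, a serine tRNA that lacks one of the arms of the usual cloverleaf, had 1.38, 5.65 and 1.49 CPM in KO hearts and 5.38, 1.41 and 6.06 CPM in WT hearts (-0.61, SE 0.70). mt-Tl2 had 8.63, 29.0 and 9.03 CPM in KO hearts and 22.5, 6.63 and 29.0 CPM in WT hearts (-0.32, SE 0.64). In all 3 genes KO replicate 2, WT replicate 1 and WT replicate 3 were the high hearts, and the groups overlapped. The highest heart exceeded the lowest 3.28-fold for mt-Th, 4.40-fold for mt-Ts2 and 4.38-fold for mt-Tl2, and 3.38-fold for mt-Tr, which had only 5 to 14 reads.

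Both mRNAs beside that cluster varied far less. Upstream, mt-Nd4 differed 1.35-fold between its highest and lowest heart, and downstream, mt-Nd5 differed 1.28-fold. The 3 tRNAs were 0.781%, 1.998% and 1.03% of tRNA reads in KO hearts and 2.29%, 0.692% and 2.11% in WT hearts (means 1.27% ± 0.642 in KO hearts and 1.70% ± 0.873 in WT hearts, SD, n = 3 each; exact permutation test, p = 0.6). The few reads assigned to mt-Nd3 and mt-Tr, inside the low-count run, were also highest, in CPM, in the same hearts. So was the summed level of 29 nuclear-encoded respiratory subunits, at 26748, 44386 and 30448 CPM in KO hearts and 33403, 30749 and 43378 CPM in WT hearts. These hearts were compared after their values were seen, and no cause of the spread was tested.

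**Figure D5:**
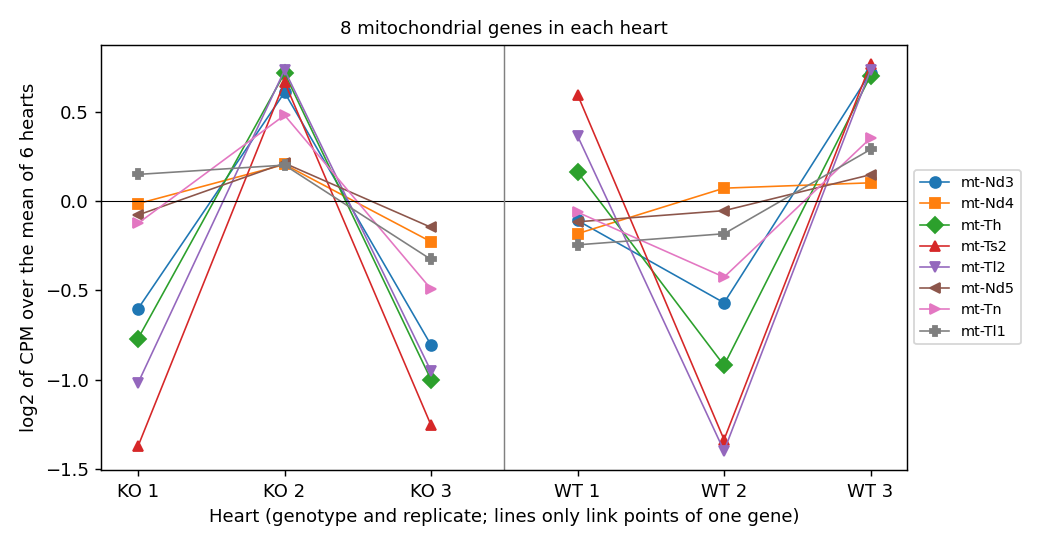
Assigned reads of 8 mitochondrial genes in each heart as log2 of CPM over the gene's mean CPM across the 6 hearts, KO replicates left and WT replicates right, lines joining points of 1 gene. mt-Th, mt-Ts2, mt-Tl2 and mt-Nd3 are high in KO replicate 2 and WT replicate 3 and low in KO replicates 1 and 3 and WT replicate 2, while mt-Nd4 and mt-Nd5 stay within 1.35-fold between hearts.

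Respiratory complexes are built from subunits of both genomes, so mitochondrial mRNA was also set against nuclear mRNA. The ratio of summed mitochondrial mRNA reads to those of 29 nuclear core and partner subunits was 9.12, 6.73 and 6.75 in KO hearts and 6.48, 8.11 and 6.43 in WT hearts. KO replicate 1 and WT replicate 2 were high. The mitochondrial sum is almost wholly that of the 7 abundant mRNAs, so the ratio says little on the other 6. Means were 7.53 ± 1.37 in KO hearts and 7.005 ± 0.954 in WT hearts (SD, n = 3 each), and the log2 ratios differed by 0.0986 (exact permutation test, p = 0.5).

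The nuclear partner subunits had lower values in KO hearts for 29 of 29, with 0 called, and the sign of their median rested on single hearts. That median was -0.09, against 0.0092 for all genes, and it was 0.0652 without KO replicate 1, 0.0197 without KO replicate 3 and 0.124 without WT replicate 3. Complex I was represented by its nuclear core subunits Ndufs7 (log2 fold change -0.12, SE 0.23) and Ndufs3 (-0.10, SE 0.20). Complex III was represented by the core proteins Uqcrc1 (-0.12, SE 0.17) and Uqcrc2 (-0.14, SE 0.28). For complex IV these were Cox6b1 (-0.15, SE 0.36) and the muscle isoform Cox7a1 (-0.18, SE 0.46); Cox7a1 had 466, 1284 and 493 CPM in KO hearts and 728, 579 and 1238 CPM in WT hearts. For the ATP synthase they were Atp5d (-0.09, SE 0.16) and the catalytic beta subunit Atp5b (-0.07, SE 0.19). A 2-fold difference was excluded for 23 of 29.

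Nuclear genes that copy, transcribe, process and translate the mitochondrial genome likewise gave no call. Of 94 tested genes in 6 lists, 18 had higher and 76 lower values in KO hearts, 0 were called and 0 had an unadjusted p under 0.05, with a median log2 fold change of -0.08 and a 2-fold difference excluded for 89. That median was -0.0167 without KO replicate 1, -0.207 without KO replicate 2 and -0.029 without WT replicate 3, so its size rested on single hearts. The 9 genes of transcription (median -0.08) include the polymerase Polrmt, at 30.8, 25.2 and 33.8 CPM in KO hearts and 35.2, 36.2 and 23.1 CPM in WT hearts (-0.07, SE 0.21), and the DNA-packaging factor Tfam, at 41.5, 57.5 and 41.5 CPM in KO hearts and 45.6, 42.5 and 60.05 CPM in WT hearts (-0.08, SE 0.20). Polrmt was low and Tfam high in KO replicate 2 and WT replicate 3. The members of that list with the smallest p were Mterf2, of the termination factor family (-0.33, SE 0.25), and the initiation factor Tfb2m (-0.10, SE 0.16).

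In the 15 genes of replication and nucleotide supply, 4 were higher and 11 lower (median -0.07), led by Polg2, the accessory subunit of the DNA polymerase (-0.22, SE 0.18), and the topoisomerase Top1mt (0.19, SE 0.17). RNA processing, stability and decay (5 of 19 higher, median -0.09) was led by the poly(A) polymerase Mtpap (-0.16, SE 0.14) and the deadenylase Pde12 (0.17, SE 0.16). Its members Lrpprc and Slirp, which bind and stabilise mitochondrial mRNA as a pair, stood at 0.09 (SE 0.35) and -0.09 (SE 0.30). Lrpprc was 187, 105 and 224 CPM in KO hearts and 171, 212 and 102 CPM in WT hearts, low in KO replicate 2 and WT replicate 3, whereas Slirp was highest there, at 48.8 and 47.5 CPM.

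RNA modification (5 of 19 higher, median -0.10) was led by Cdk5rap1, which modifies mitochondrial tRNAs (-0.33, SE 0.32), and the tRNA methyltransferase Trmt5 (-0.22, SE 0.23). Aminoacyl-tRNA synthesis (3 of 20 higher, median -0.07) was led by Mars2, the methionyl-tRNA synthetase, with 16.3, 18.0 and 16.6 CPM in KO hearts and 21.2, 18.0 and 21.97 CPM in WT hearts (-0.26, SE 0.14), and by Qrsl1, a subunit of the glutaminyl-tRNA amidotransferase (-0.18, SE 0.12). Translation factors (0 of 12 higher, median -0.12) were led by Taco1, the translational activator of mt-Co1 (-0.18, SE 0.14), and Ptcd3, a mitoribosome-associated protein (-0.21, SE 0.20). Polrmt, Tfam, Lrpprc and Slirp were named outside the rule of smallest p, after their values were seen.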

How the data were processed

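Per the labels' protocols, total RNA of 6 hearts was isolated with the RNeasy Mini Kit and libraries were built with NEBNext Ultra II RNA reagents. The authors deposited raw whole-number read counts per gene and library, not normalized. The submitters' processing notes name GRCm38.p6, STAR, Subread 1.5.2, featureCounts and DESeq2 without their roles. No source used here gives read length, strand setting, annotation release or the handling of multiply matching reads. Symbols, types and positions came from GENCODE M21 (GRCm38) and were found for 48970 of 49315 identifiers. No molecular identifiers were used, so counting intervals cover counting error only.

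Counts were kept by filterByExpr (minimum count 10, minimum total 15), scaled by TMM and tested, KO against WT, with the quasi-likelihood test of edgeR 4.0.16 in R 4.3.3 over all 14508 genes kept, at an adjusted p of 0.05. Biological variation between hearts (edgeR's coefficient) was 24.2%, and the fold changes had a median standard error of 0.232. Single values per heart were compared by two-sided exact permutation tests. Mitochondrial transcripts were compared with all other annotated transcripts by BLAST 2.17.0 and by exact 50- and 100-base windows. Scripts were tested on simulated counts. Members and lists were chosen with earlier results of these data known. All mitochondrial genes are named or counted, and from each nuclear list the 2 tested members with the smallest p. The list symbol Prorp had no match. Alternatives were other scalings, filters and tools (DESeq2 1.42.0, limma 3.58.1 voom), a replicate block, other denominators, and leaving out hearts.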

Additional observations from a re-analysis of the deposited data

How the results depend on the processing

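The number of mitochondrial genes called stayed at 0 under all 16 alternatives, and the smallest adjusted p of any mitochondrial gene fitted under any of them was 0.613 in edgeR, DESeq2 or limma-voom. Named nuclear genes were likewise not called. Fold changes near 0 changed sign with the scaling or tool. With edgeR's RLE scaling in place of TMM, mt-Co1 was -0.00967, mt-Co2 -0.00307 and mt-Nd5 -0.0048. With library size alone mt-Nd4 was 0.00502, and with scaling by nuclear genes mt-Co1 was -0.00158. Scaling to summed mitochondrial mRNA gave -0.0105 for mt-Co1 and -0.0123 for mt-Tn, and no filter gave 0.00755 for mt-Nd4. In limma-voom the values were -0.0119 for mt-Co1 and -0.00156 for mt-Co3. DESeq2 gave -0.0104 for mt-Co1, -0.00336 for mt-Co2 and -0.00532 for mt-Nd5. Of the 20 mitochondrial genes so followed, 14 kept one sign under all alternatives that left out no heart.

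Leaving out 1 heart, or KO replicate 2 and WT replicate 3 together, gave the following lowest and highest log2 fold changes for mitochondrial genes whose sign changed: mt-Nd4 -0.121 to 0.0956, mt-Tl1 -0.0457 to 0.24, mt-Nd1 -0.113 to 0.165, mt-Co1 -0.188 to 0.143, mt-Co2 -0.149 to 0.181, mt-Atp6 -0.0454 to 0.177, mt-Co3 -0.291 to 0.243, mt-Nd5 -0.11 to 0.088, mt-Nd6 -0.0893 to 0.143, mt-Cytb -0.115 to 0.123, mt-Ts1 -0.11 to 0.604, mt-Tn -0.287 to 0.243, mt-Nd2 -0.13 to 0.115, mt-Atp8 -0.18 to 0.0445, mt-Nd3 -0.811 to 0.188, mt-Th -1 to 0.135, mt-Tp -0.46 to 0.074 and mt-Tl2 -1.13 to 0.0935. For nuclear genes the same ranges were Ndufs7 -0.358 to 0.0258, Ndufs3 -0.302 to 0.0189, Uqcrc2 -0.448 to 0.0515, Cox6b1 -0.61 to 0.128, Cox7a1 -0.824 to 0.194, Atp5b -0.189 to 0.0354, Gm28439 -0.294 to 0.0335 and Cdk5rap1 -0.607 to 0.0226. Some kept their sign but moved by over 1.5 times: mt-Ts2 -1.57 to -0.27, mt-Nd4l -0.449 to -0.134, Gm28438 -0.657 to -0.188, Mterf2 -0.654 to -0.168, Tfb2m -0.228 to -0.0154, Trmt5 -0.482 to -0.0726, Top1mt 0.108 to 0.273, Mtpap -0.227 to -0.103, Pde12 0.0342 to 0.256, Taco1 -0.27 to -0.0997, Ptcd3 -0.435 to -0.109, Uqcrc1 -0.229 to -0.0196 and Atp5d -0.183 to -0.0172. The differences in percent of mitochondrial mRNA reads ranged over mt-Nd1 -0.112 to 0.343, mt-Nd2 -0.416 to 0.0589, mt-Co1 -1.19 to 0.357, mt-Nd4 -0.194 to 0.101, mt-Nd5 -0.436 to 0.376, mt-Nd6 -0.0447 to 0.192 and mt-Cytb -0.0275 to 0.451. The difference between KO and WT hearts ranged from -1.06 to 1.92 points for the mitochondrial share, -1.05 to 1.9 for mRNAs and -0.0141 to 0.0189 for tRNAs. It ranged from -0.0187 to 0.08 for the log2 ratio of mt-Nd6 to the other mRNAs and from -0.0467 to 0.208 for that of mitochondrial mRNA to partner subunits. The cause of these sign changes was not tested. Over all genes, the number called was 1 with all hearts, 0 without KO replicate 3 and 2 without both named hearts. Without both of these hearts, the values that changed sign were -0.033 for mt-Nd1, -0.0887 for mt-Co1, 0.0201 for mt-Atp8, -0.0924 for mt-Co3, -0.0371 for mt-Nd5, -0.0403 for mt-Cytb, -0.0745 for mt-Tn, and differences of -0.329 points in the mitochondrial share, -0.327 in that of mRNAs and -0.00168 in that of tRNAs.

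With the replicate number as a block, 0 genes were called over the whole table, against 1 without it, and the fold changes were -0.0119 for mt-Co1 and -0.0022 for mt-Tn. The correlations of same-numbered hearts in their deviations from the group means were 0.184, -0.649 and -0.399. Of the 6 hearts, 1 correlated best with its own number. Deviations from a mean of 3 hearts depend on one another. The check therefore cannot show whether same-numbered hearts shared a litter, date or batch. The planned comparison of ribosomal RNA ratios was not run. Depth limits the rows with few reads, mt-Td, mt-Tk and mt-Tg above all, which could not be tested. Interval width did not follow depth alone: mt-Atp6, with 377 to 626 reads, had a standard error of 0.18 and mt-Co1, with 2725447 or more, one of 0.26.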

Other observations

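The RNA components of RNase MRP and RNase P, nuclear-encoded ribonucleoproteins that cut RNA, and the 7SK RNA had lower counts in KO hearts; these genes were named after their values were seen, and none was called. Rmrp had 2, 2 and 4 reads in KO hearts and 18, 10 and 12 in WT hearts, too few to pass the filter on low counts. With no filter its log2 fold change was -2.37 (SE 0.61, unadjusted p = 0.00165, adjusted p = 1 in edgeR). Rpph1, the RNase P RNA, had 4, 6 and 2 reads in KO hearts and 30, 12 and 10 in WT hearts (log2 fold change -2.18, SE 0.69, unadjusted p = 0.0153 and adjusted p = 1 in edgeR). Rn7sk had 37, 52 and 63 reads in KO hearts and 103, 92 and 80 in WT hearts (-0.92, SE 0.32, unadjusted p = 0.0218 and adjusted p = 1 in edgeR). In all 3 genes the KO counts lay below the WT counts, where the CPM of 4.07% of all tested genes did not overlap. WT replicate 1 had the highest count in each. The summed level of small nucleolar and Cajal body RNAs was 20.1, 29.2 and 17.1 CPM in KO hearts and 17.7, 20.8 and 23.996 CPM in WT hearts, with overlapping groups.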
